A study of Mus musculus with 4 samples.

Results

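The genes described here belong to 7 families of homeodomain and paired-box transcription factors: NKX, PAX, LHX, the sine oculis homeobox genes (Six2 to Six6), MEIS with PBX, IRX and DLX. A gene counted as looped when either of its annotated ends on mouse build mm10 lay within 2.5 kb of an anchor of a called chromatin loop in at least 1 of 4 libraries. By this rule 25 of the 48 genes listed for these families were looped (52.1%), beside 9139 of 21631 protein-coding genes (42.2%). The 25 looped genes are called the members below. The 48 names were taken by family, and the 25 were chosen by having a loop, so that they have one is not itself a result. Loops came from Micro-C, which cuts chromatin with micrococcal nuclease and joins DNA ends that lie close in space. The cells were granulosa cells, collected by puncture from the ovaries of mice aged 21 days. All mice were primed with PMSG, that is equine chorionic gonadotropin (eCG), at a dose of 5 IU, for 46 h by the sample characteristics or 44 h by the protocol. The PMSG group (2 libraries) was collected at 0 h after human chorionic gonadotropin (hCG), without an hCG dose. The hCG group (2 libraries) received 5 IU of hCG as well, a substitute for the luteinizing hormone surge, and was collected 6 h later. Each library combines 2 to 3 technical replicates, and the labels do not say whether 2 libraries of a group hold different mice, so p-values measure a spread that may be technical.

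A homeodomain is a protein fold that reads short DNA motifs. Genes of these families set the identity of cells in the embryo, and PAX factors bind DNA through a paired domain as well. In cells that do not use them, such genes usually lie in CpG-rich stretches held silent by Polycomb proteins, and their enhancers can lie far away. MEIS and PBX proteins differ in that they are broadly used partners of HOX and other factors. In the ovary, Irx3 and Irx5 act in granulosa cells while follicles form, and Lhx9 acts in the early gonad. Loop lists hold no expression, so nothing below says whether a gene was active.

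The promoters of 4 members are shown because they stand for the patterns described below: Nkx2-4 at a loop called only after hCG, Nkx6-2 at a loop called only before it, Irx3 joined to Irx5, and Meis1 with its ends joined in all libraries. Each sequence is the 250 bases before the annotated RefSeq start (GRCm38.p6, the assembly of mm10), 5′ to 3′ on the gene's strand, with CpG dinucleotides in capitals.
Nkx2-4, chr2:147085346-147085595, minus strand: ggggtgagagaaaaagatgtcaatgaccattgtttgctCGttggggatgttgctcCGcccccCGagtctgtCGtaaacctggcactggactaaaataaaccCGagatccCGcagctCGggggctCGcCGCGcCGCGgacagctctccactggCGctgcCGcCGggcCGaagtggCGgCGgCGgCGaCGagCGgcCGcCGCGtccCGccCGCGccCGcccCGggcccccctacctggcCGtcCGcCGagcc
Nkx6-2, chr7:139582798-139583047, minus strand: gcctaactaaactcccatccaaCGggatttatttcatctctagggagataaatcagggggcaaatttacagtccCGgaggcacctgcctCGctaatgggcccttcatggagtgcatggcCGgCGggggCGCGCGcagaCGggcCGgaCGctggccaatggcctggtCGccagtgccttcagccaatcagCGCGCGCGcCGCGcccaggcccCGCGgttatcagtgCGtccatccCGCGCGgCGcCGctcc
Irx3, chr8:91801655-91801904, minus strand: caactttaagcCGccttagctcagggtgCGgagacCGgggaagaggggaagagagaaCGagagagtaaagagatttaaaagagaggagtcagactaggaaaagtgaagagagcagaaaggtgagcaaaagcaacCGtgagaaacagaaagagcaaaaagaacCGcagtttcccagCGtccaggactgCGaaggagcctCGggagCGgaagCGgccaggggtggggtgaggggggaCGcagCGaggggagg
Meis1, chr11:19018970-19019219, minus strand: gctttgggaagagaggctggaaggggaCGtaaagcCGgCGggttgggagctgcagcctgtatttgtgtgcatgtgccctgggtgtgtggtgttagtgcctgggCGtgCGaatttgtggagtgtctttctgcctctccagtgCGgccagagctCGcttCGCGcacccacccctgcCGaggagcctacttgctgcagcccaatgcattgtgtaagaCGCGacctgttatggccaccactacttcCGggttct
These windows held 33, 26, 13 and 13 CpG. Of the 48 listed genes, 35 had a promoter in the RefSeq table, and their median was 14.0 CpG per 250 bases, against 10 over 17274 protein-coding genes. At least 10 CpG were present in 16 of 20 member promoters and in 12 of 15 promoters of listed genes without a loop, which is 80.0% in both cases. The share was 64.3% of 7209 looped protein-coding genes and 51% of all. Looped and unlooped genes of these families thus had the same share of CpG-rich windows. The Nkx2-4 window lay inside a loop anchor in PMSG replicate 1 and both hCG libraries, and the Nkx6-2 window in PMSG replicate 2. A strict core form of the motif of CTCF, the protein found at many loop anchors, was searched on both strands. It was in the window of Lhx4 alone among the 35, or 2.86%, and in 8.22% of all promoters. Sequences of the anchors themselves were not used here.

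The deposited loop lists held 8305 and 6533 loops in PMSG replicates 1 and 2 and 7664 and 7935 in hCG replicates 1 and 2. A pixel is a pair of genomic bins. Set to 1 in PMSG replicate 1, the expected contacts at pixels that every list held were 0.623 in the other PMSG library and 0.592 and 0.744 in hCG replicates 1 and 2, so PMSG replicate 1 and hCG replicate 2 were the deeper libraries. Of 10 granulosa marker genes, 9 were looped, and so were 6 of 8 theca and stroma markers, 2 of 6 endothelial, 2 of 5 leukocyte and 3 of 5 oocyte markers. Over all protein-coding genes 42.2% were looped, and sets of 5 to 10 genes are too small to be read against that share. A loop at a marker gene is not a measure of that cell type, and the makeup of the samples was not tested.

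Most member loops did not separate the treatments, which was also so for loops at gene ends in general. Loops were taken as the same when both anchor midpoints lay within 20 kb, which gave 45 distinct loops at the 25 members. A loop is called hCG-only when it was in both hCG lists and no PMSG list, PMSG-only in the reverse case, and constant when it was in all 4 lists. Only Nkx2-4 had an hCG-only loop, 1 of 25 members or 4%, against 8.31% of all looped protein-coding genes. Nkx6-2 and Pbx3 had PMSG-only loops, 2 of 25 or 8%, against 5.46%. Counted as distinct loops, 2.22% of 45 at members were hCG-only and 4.44% PMSG-only, against 5.19% and 3.51% of 8380 at any gene end. Shares that rest on 1 and 2 genes or loops are too coarse to be read against the background. Constant loops were present at 14 members, or 56.0%, against 41.7% of looped genes. This excess did not hold under every setting: the shares were 20% and 18.9% when matched anchors had to overlap, and 25% (4 of 16) and 35.7% when only annotated starts counted, a setting chosen after the data had been seen. Members had a mean of 1.92 distinct loops each and looped genes 1.70. Among genes looped in at least 2 libraries, 12 of 21 members had a constant loop (57.1%, against 54.1% of all such genes), 1 an hCG-only loop (4.76% against 10.7%) and 2 a PMSG-only loop (9.52% against 7.08%). Leaving out a library leaves 1 list in its group, which loosens the classes. The hCG-only count was 4 without PMSG replicate 1, 1 without PMSG replicate 2, 6 without hCG replicate 1 and 4 without hCG replicate 2. The PMSG-only count was 3, 7, 2 and 5 in the same order. All genes moved too, to between 11.4% and 25.9% hCG-only and between 10.2% and 25.1% PMSG-only. Nkx2-4, Nkx6-2 and Pbx3 were in their class in each of these. That is no check of them. A loop of both libraries of 1 group and none of the other cannot leave its class this way.

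**Figure D1:**
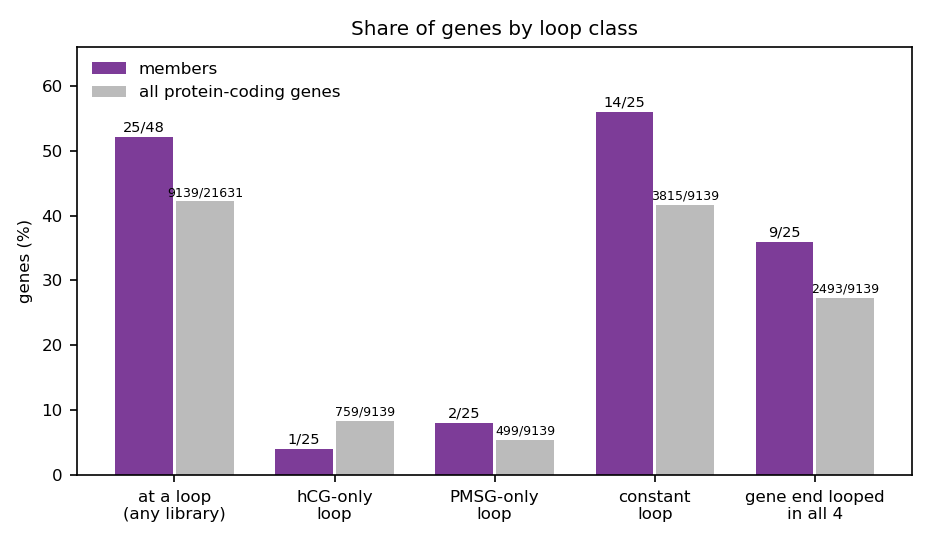
Bars give the share of genes (percent, axis from 0) for the listed genes or members (purple) and all protein-coding genes (grey), with the counts above them. The members reach 4% for hCG-only and 8% for PMSG-only loops, beside 8.31% and 5.46% of all looped genes.

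Counted by library, 22 and 17 members were looped in PMSG replicates 1 and 2, and 12 and 18 in hCG replicates 1 and 2. The groups overlapped, at 19.5 ± 3.54 and 15 ± 4.24 members (SD, n = 2 each; exact permutation test, two-sided, p = 0.667). With 2 libraries against 2, the exact permutation test cannot go below p = 0.333. Over all protein-coding genes the same libraries had 5890, 4692, 5755 and 5835 looped genes, so hCG replicate 1 had the fewest looped members although its looped genes numbered nearly as many as those of hCG replicate 2. The number of loops at members was 31, 20, 21 and 28, or 3.73, 3.06, 2.74 and 3.53 per 1000 loops. The group means of 3.40 ± 0.475 and 3.13 ± 0.558 per 1000 (SD, n = 2) overlapped and differed by -0.263 (exact permutation test, two-sided, p = 0.667). The sign of this difference turned when PMSG replicate 1 was left out (0.0730), when hCG replicate 1 was left out (0.132), and when the gene end had to lie inside the anchor (0.413). Looped in every library were 9 members: Nkx2-2, Pax3, Lhx2, Meis1, Meis2, Irx3, Irx5, Dlx3 and Dlx5. Their share of 36% stands beside 27.3% of all looped genes. Nkx6-1, Lhx4, Six6, Dlx1 and Dlx2 were looped in PMSG replicate 1 and hCG replicate 2 only, 5 of 25 members (20%) against 4.46% of looped genes. These are the deeper libraries of the 2 groups, and the part of depth in this count was not tested. The 5 genes are not 5 separate cases. Dlx1 and Dlx2 share an anchor, and the Lhx4 loop was also called in PMSG replicate 2, where its anchor missed the gene end. Among distinct loops, 4 of 45 at members were in these 2 libraries only (8.89%), against 3.70% of those at any gene end. Other pairs of 1 PMSG and 1 hCG library were not counted for genes.

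**Figure D2:**
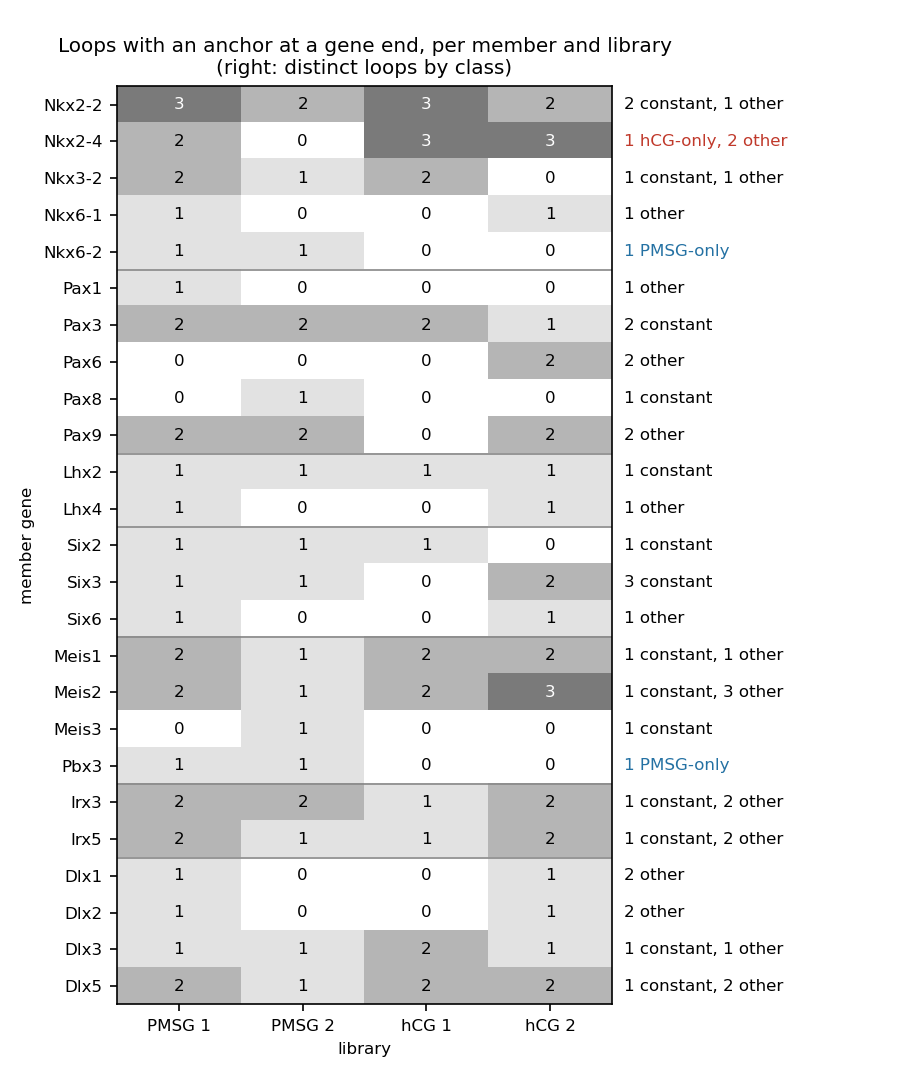
Rows are the 25 members in family order, columns the 4 libraries, and each cell gives the number of loops with an anchor at an end of that gene (darker means more). The text at the right gives distinct loops by class: Nkx2-4 has 1 hCG-only loop, Nkx6-2 and Pbx3 have 1 PMSG-only loop each.

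The hCG-only loop joined Nkx2-4, the close relative of the thyroid and lung regulator Nkx2-1, to the gene of the forkhead factor Foxa2. Its anchors were 147075001 to 147100000 and 148025001 to 148050000 on chromosome 2, a span of 950 kb, called in 25 kb bins. The observed count was 18 contacts in hCG replicate 1 and 23 in hCG replicate 2, against 2.97 and 3.57 expected from the surrounding donut of pixels. Enrichment was therefore 6.06 and 6.45, and the largest of the 4 deposited FDR values was 0.00811 and 4.96e-05. In the PMSG lists no loop was closer than 300 kb to it, and the contact count of those libraries at this pixel was not used here, since lists give counts only where a loop was called. The anchor at Nkx2-4 also overlaps Xrn2, a gene for an RNA exonuclease, so the bin cannot be assigned to one of the 2 genes. The loop stayed hCG-only under each other matching rule, threshold and gene-end distance tried. With identical anchors in both hCG lists and no PMSG loop within 300 kb, the matching rules could hardly change this.

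Nkx2-4 had 2 further loops, in PMSG replicate 1 and both hCG libraries. One spanned 245 kb towards lower coordinates, with 25, 67 and 14 contacts against 5.46, 26.9 and 1.41 expected, in bins of 10, 25 and 5 kb. The other ended 95.0 kb away inside Nkx2-2, at 147180001 to 147185000, with 14, 25 and 34 contacts against 2.63, 5.22 and 6.23. Counts in bins of different size cannot be set against each other, so only the ratio to the expectation is read, and it falls with bin size. Nkx2-4 thus had 2 loops in PMSG replicate 1, 0 in PMSG replicate 2 and 3 in each hCG library. The nearest anchor in PMSG replicate 2 was 84.6 kb from the gene.

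Nkx2-2, a homeodomain factor of the ventral neural tube and of pancreatic endocrine cells, lay next to it at 147176485 to 147195434 and behaved differently. Its end was looped in all libraries, with 3, 2, 3 and 2 loops. The loop of 215 kb to an anchor in Kiz had 32, 25, 15 and 25 contacts in PMSG replicates 1 and 2 and hCG replicates 1 and 2, against 3.02, 2.20, 1.89 and 2.01 expected. The ratios of 10.6, 11.3, 7.92 and 12.4 overlap between the groups. This was the constant member loop with the highest lowest ratio. In an edgeR quasi-likelihood fit over 1366 loops called in 1 bin size in all 4 libraries, chosen after the data had been seen, its log2 ratio of hCG over PMSG was -0.09 ± 0.29 (SE; adjusted p = 0.980). A second constant loop of 555 kb had 19, 21, 24 and 14 contacts against 1.99, 3.73, 4 and 1.90. Its other loop, of 350 kb, was called in PMSG replicate 1 and both hCG libraries, with 96, 58 and 27 contacts against 35.2, 23.8 and 4.73. Pax1, a sclerotome factor on the other side of Nkx2-2, had 1 loop of 375 kb, in PMSG replicate 1 only.

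**Figure D3:**
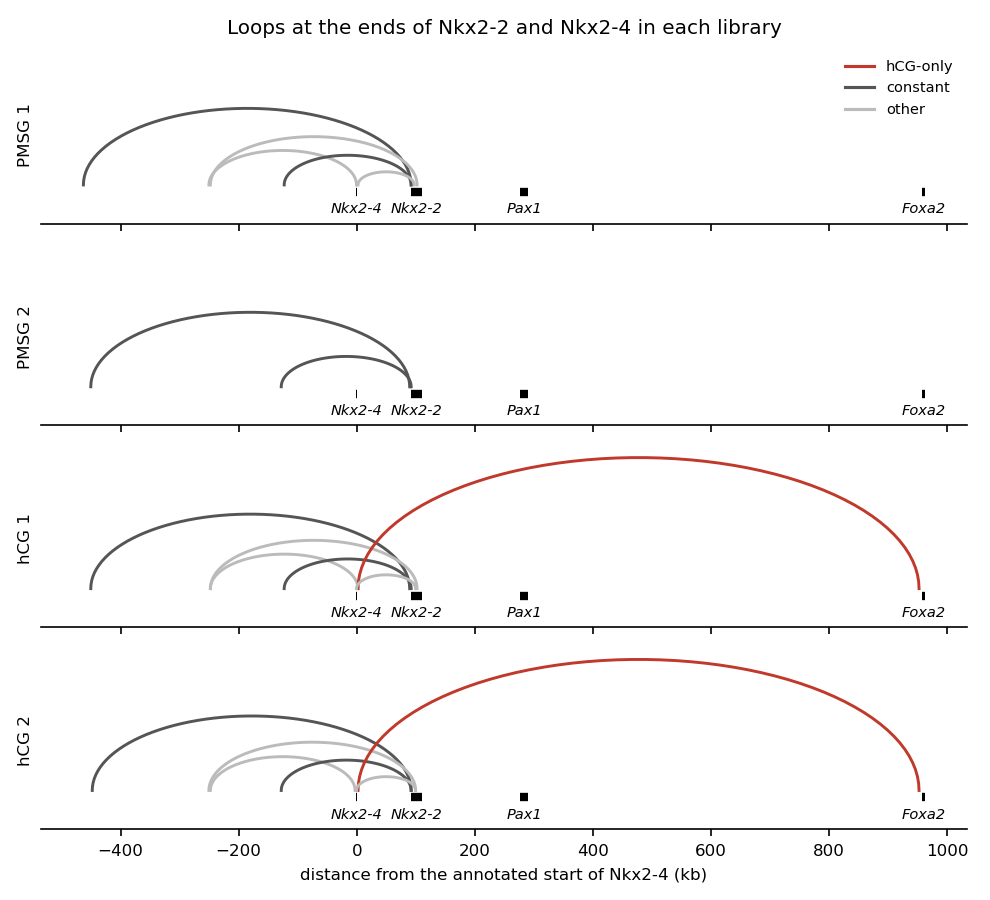
Each panel is 1 library, and each arc joins the anchor midpoints of a loop at Nkx2-2 or Nkx2-4, placed by distance in kb from the annotated start of Nkx2-4; black bars are genes and arc height follows the span. The 950 kb arc to Foxa2 (red) appears in both hCG panels and neither PMSG panel, while the dark arcs of 215 and 555 kb at Nkx2-2 appear in all 4; an arc is drawn wherever the matched loop was called, even if its anchor in that library missed the gene end.

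The PMSG-only loop of Nkx6-2, a homeodomain factor of the neural tube and of oligodendrocytes, spanned 100 kb on chromosome 7, from 139485001 to 139490000 to 139585001 to 139590000. PMSG replicate 1 had 26 contacts where 4.33 were expected (5 kb bins), and PMSG replicate 2 had 32 where 6.83 were expected (10 kb bins), ratios of 6.01 and 4.69. Both anchors are also tied to Inpp5a, the inositol polyphosphate phosphatase gene next to it: the far anchor lies inside Inpp5a and the near one also reaches an end of it. Nkx6-2 (139579376 to 139582797) had no loop in either hCG library, where the nearest anchor of any loop was 42.2 kb away, and the nearest hCG loop to this one was 275 kb off. It kept its class under each other matching rule, threshold and gene-end distance tried. With the nearest hCG loop 275 kb off, wider matching could hardly change this. In PMSG replicate 1 its end was 2.20 kb from the anchor, just inside the limit.

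Pbx3, which encodes a TALE homeodomain partner of HOX proteins, had the other PMSG-only loop, a span of 280 kb on chromosome 2. It started at the Pbx3 end at 34372045. In PMSG replicate 1 this end was 2.04 kb from the anchor, just inside the limit. An end of the kinase-complex gene Mapkap1 lies near the far anchor in 1 or both PMSG libraries. PMSG replicate 1 had 25 contacts where 6.63 were expected (10 kb bins), and PMSG replicate 2 had 57 where 23.0 were expected (25 kb bins). The ratios were 3.77 and 2.48. The nearest hCG loop was 172 kb off. This loop was no longer PMSG-only when all 4 FDR values had to be at most 0.01, since its largest FDR in PMSG replicate 1 was 0.0162. Looped in both PMSG and no hCG library were 2 of 25 members, Nkx6-2 and Pbx3 (8%, against 3.29% of looped genes), and the reverse held for 0 of 25 (against 5.39%).

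Of the other NKX genes, Nkx3-2, a regulator of skeletal and gut development also known as Bapx1, had long and strong loops. A constant loop of 645 kb on chromosome 5 had 15, 16, 21 and 19 contacts against 1.67, 1.48, 2.62 and 2.67 expected, ratios of 8.97, 10.8, 8.01 and 7.12. Both PMSG values were above both hCG values, but the PMSG pixels were 5 kb and the hCG pixels 10 kb wide, so these ratios are not comparable between groups. A loop of 715 kb from the same gene was called in all libraries but PMSG replicate 2. It had 23, 25 and 19 contacts against 1.29, 2.25 and 2.76, and the ratio of 17.8 in PMSG replicate 1 was the highest at any member loop. In hCG replicate 2 neither anchor came closer than 5.78 kb to Nkx3-2, so the gene counts as unlooped there although both loops were called. Nkx6-1, a factor of pancreatic beta cells and motor neurons, had 1 loop of 750 kb to the end of Gpat3, in the deeper libraries only, with 61 and 43 contacts against 19.2 and 12.9.

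Among PAX genes, Pax3, a regulator of neural crest and muscle progenitors, was looped in all libraries. Its constant loop of 50 kb lay inside the gene, from 78140001 to 78145000 to the end at 78197136, with 30, 34, 19 and 23 contacts against 7.51, 11.6, 3.26 and 5.89. In hCG replicate 2 the matched anchor missed the gene end. A second constant loop left the gene for an anchor 220 kb away without a protein-coding gene. Pax9, which acts in tooth, palate and pharyngeal pouch development, had 2 loops in every library but hCG replicate 1, where its nearest anchor was 267 kb away. The loop of 500 kb to an end of Slc25a21 had 71 and 49 contacts against 13.8 and 10.6 in the PMSG libraries and 32 against 9.66 in hCG replicate 2, all in 25 kb bins. The ratios of 5.16 and 4.64 before hCG lay above the 3.31 of hCG replicate 2, a difference that was not tested because hCG replicate 1 has no value. Pax6, the eye and pancreas regulator, was looped in hCG replicate 2 alone, at a 25 kb anchor that also reaches an end of Elp4. Pax8, a thyroid and Müllerian duct factor, sat at a constant loop of 160 kb, but only the 10 kb anchor of PMSG replicate 2 reached its end. The other 3 libraries called the same loop with an anchor 10.6 kb from the gene, where an end of Psd4 lies.

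The LIM-homeodomain gene Lhx2, a regulator of forebrain and hair follicle cells, had 1 constant loop, of 450 kb on chromosome 2 to an anchor inside Dennd1a. Contacts were 42 against 9.19 in PMSG replicate 1 and 24 against 6.13 in hCG replicate 2 (10 kb bins), and 65 against 28.0 in PMSG replicate 2 and 55 against 23.0 in hCG replicate 1 (25 kb bins). Within each bin size the ratios were near each other, 4.57 and 3.92, and 2.32 and 2.39. Lhx4, a pituitary regulator, had a loop of 150 kb in all libraries but hCG replicate 1. Its end was reached in PMSG replicate 1 and hCG replicate 2.

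The sine oculis homeobox genes Six2 and Six3 lie side by side on chromosome 17 and looped in opposite directions. Six2, which maintains nephron progenitors, had a constant loop of 400 kb towards Srbd1, with 31, 25, 25 and 27 contacts against 8.29, 5.57, 5.12 and 5.90, all in 10 kb bins. The ratios of 3.74 and 4.49 before hCG lay below those of 4.88 and 4.57 after it. In hCG replicate 2 the anchor was 2.74 kb from the gene, just outside the limit. Its log2 ratio of hCG over PMSG was 0.22 ± 0.26 (SE; edgeR over 1366 loops, adjusted p = 0.912). Six3, a forebrain and eye regulator, had 3 constant loops away from Six2, of 440, 520 and 800 kb. The longest had 88 and 46 contacts against 24.1 and 13.3 in PMSG (25 kb bins) and 19 and 23 against 3.03 and 3.52 in hCG (10 kb bins). The loop of 520 kb had 36, 21, 19 and 67 against 5.60, 3.93, 3.21 and 19.7, and that of 440 kb had 17, 13, 22 and 81 against 2.23, 1.34, 2.99 and 23.3. Their anchors near Six3 began at 85625001 or 85630001 and the gene ends at 85626191, so the wider bins reached the gene and the narrower ones did not. Six3 was within 2.5 kb of an anchor in all libraries but hCG replicate 1, where it was 3.81 kb away. Six6, an eye and hypothalamus factor, had 1 loop in PMSG replicate 1 and 1 in hCG replicate 2, and its nearest anchors in PMSG replicate 2 and hCG replicate 1 were 25.1 and 30.1 kb away.

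Meis1 and Meis2, TALE homeodomain genes, each had a constant loop that joined the 2 ends of the gene. Over all 9139 looped genes, 11 had their own ends joined in all 4 libraries (0.120%), and 2 of these 11 were members (8% of 25). A loop between the own ends in any library was present at 2.64% of looped genes. This criterion was chosen after the loops had been seen. The other 9 genes were Abtb2, Dpysl5, Igfbp7, Ikzf4, Nxn, Pitpnc1, Ptges, Ptp4a3 and Rnf150. Short genes cannot form such a loop at this bin size: of 930 looped genes of 100 to 250 kb, 5 had it (0.538%). These 5 include Meis1 and Meis2 themselves, which are 139 and 206 kb long. At Meis1 (chromosome 11, 18880428 to 19019651) 21, 16, 17 and 22 contacts were observed where 3.29, 1.71, 2.24 and 2.70 were expected. The ratios of 6.39, 9.36, 7.60 and 8.13 overlap between groups, with a log2 ratio of 0.09 ± 0.30 (SE; edgeR over 1366 loops, adjusted p = 0.984). A second loop ran from the same end of Meis1 over 875 kb, with 50, 42 and 46 contacts against 17.8, 13.3 and 15.6 in all libraries but PMSG replicate 2.

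At Meis2 (chromosome 2, 115861264 to 116067537) the same 5 kb pixel was called in every library, 115855001 to 115860000 with 116070001 to 116075000. It had 37 and 14 contacts in PMSG replicates 1 and 2 and 37 and 47 in hCG replicates 1 and 2, against 3.88, 1.84, 2.65 and 2.97 expected. The ratios were 9.54 and 7.60 before hCG and 14.0 and 15.8 after it, so the groups did not overlap. This was the only member pixel among the 435 pixels called identically in all libraries. The edgeR quasi-likelihood test with the donut expectation as offset gave a log2 ratio of hCG over PMSG of 0.75 ± 0.23 (SE) with an adjusted p = 0.553. The difference did not pass. Of the 435 pixels, 0 passed an adjusted p of 0.05 (0% called), 29 had an unadjusted p under 0.05, and DESeq2 called 0 as well, with 1 unadjusted. Over other settings the log2 ratio lay between 0.65 and 0.97 and the adjusted p between 0.274 and 0.999. Meis2 had the most distinct loops of any member, 4, and the other 3 ran to anchors 350 to 560 kb away. Meis3 lay at a constant loop of 70.0 kb to the complement receptor gene C5ar1, with 26, 13, 21 and 23 contacts against 4.15, 1.94, 2.08 and 2.94, all in 5 kb bins. The ratios of 6.27 and 6.71 before hCG lay below those of 10.1 and 7.83 after it, and the log2 ratio was 0.45 ± 0.28 (SE; edgeR over 1366 loops, adjusted p = 0.836). The end of Meis3 was reached only in PMSG replicate 2. An end of the helicase gene Dhx34 also lies near an anchor on this side of the loop, not necessarily the anchor of PMSG replicate 2.

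Irx3 and Irx5 were joined to each other in every library, the only loop between ends of 2 different members. The loop spanned 570 kb on chromosome 8, from Irx3 (91798511 to 91801654) to Irx5 (92357796 to 92361456). The PMSG libraries had 32 and 41 contacts where 7.11 and 13.9 were expected, and the hCG libraries 19 and 22 where 3.27 and 3.91 were expected. The ratios were 4.50, 2.94, 5.81 and 5.62. The lowest, in PMSG replicate 2, came from a 25 kb bin and the others from 10 kb bins. Both genes also met Fto, whose introns are known in mouse and human to contact Irx3. Irx3 met it at 260 kb in PMSG replicate 1 and hCG replicate 2, with 120 contacts against 55.8 in a 25 kb bin and 22 against 5.70 in a 10 kb bin. Irx5 met it at 825 kb in hCG replicate 2, with 64 against 19.2. Single-library loops were Irx3 over 125 kb in PMSG replicate 2 and Irx5 over 375 kb in PMSG replicate 1. Irx6, the remaining gene of this cluster, and Irx1, Irx2 and Irx4 of the chromosome 13 cluster were not looped. The nearest anchor of any list was 129 kb from Irx6, 948 kb from Irx1, 786 kb from Irx2 and 150.4 kb from Irx4.

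The DLX genes come in pairs and were looped as such only at Dlx1 and Dlx2. These forebrain interneuron factors share a 25 kb anchor on chromosome 2 that met the zinc-finger gene Sp9 over 1725 kb in PMSG replicate 1 and over 1750 kb in hCG replicate 2. An end of Metap1d also lies at the near anchor, and one of Cir1 at the far anchor in hCG replicate 2. Contacts were 28 against 7.16 and 22 against 5.75. The far anchors are 25 kb apart, just beyond the 20 kb match distance, so the loops count as 2, and Dlx1 and Dlx2 are not independent. Dlx3, which acts in skin, hair and placenta, had a constant loop of 135 kb that ran past its neighbour Dlx4, and a second loop of 100 kb in hCG replicate 1 only. The counts of 42, 17, 20 and 24 contacts stood against 5.05, 2.26, 2.11 and 2.96, and the ratios of 8.32, 7.53, 9.47 and 8.12 overlap between groups (log2 ratio 0.10 ± 0.26 SE; edgeR over 1366 loops, adjusted p = 0.960). Dlx5, a craniofacial and limb factor, had a constant loop of 880 kb to Dync1i1, a dynein gene whose exons are known to hold limb enhancers of Dlx5 and Dlx6. In 25 kb bins it had 52, 56 and 70 contacts against 19.9, 19.9 and 23.4 in PMSG replicate 2 and hCG replicates 1 and 2, ratios of 2.61, 2.82 and 2.99. In a 10 kb bin of PMSG replicate 1 the ratio was 5.15. A Dlx5 loop of 1025 kb was called in PMSG replicate 1 with 82 contacts against 27.3 and in hCG replicate 2 with 50 against 18.6, and one of 1250 kb in hCG replicate 1 with 31 against 7.63. Dlx6 was 7.03 kb from the nearest anchor in every library and does not count as looped.

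**Figure D4:**
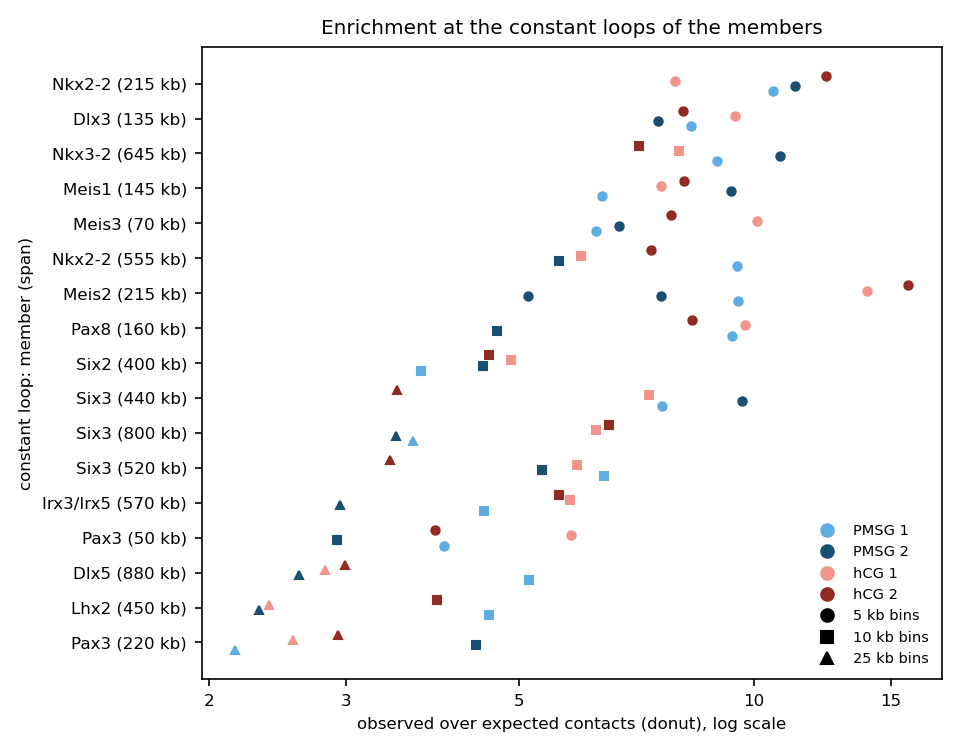
Points give the ratio of observed to expected contacts (donut, log axis) at each of the 17 constant member loops, coloured by library and shaped by bin size; Meis2 has 2 points in PMSG replicate 2, where 2 pixels matched. Among loops called in 1 bin size, both hCG points lie right of both PMSG points at Meis2, Meis3 and Six2, and the groups interleave at Meis1, Dlx3 and the 215 kb loop of Nkx2-2; none of these differences passed the edgeR test.

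Loops at members were longer than loops at other genes. The median span of the 45 distinct member loops was 375 kb, against 150 kb for 8380 distinct loops at any gene end, and 35.6% against 10.8% were over 500 kb. This also held for constant loops, at 400 kb for 17 member loops against 150 kb for 2459. Within each of the 3 bin sizes the member median exceeded the median of all gene-end loops in every library, as in hCG replicate 1 with 140 against 90.0 kb in 5 kb bins, 540 against 110 kb in 10 kb bins and 475 against 200 kb in 25 kb bins. The numbers are small, 5 to 10 member loops a library in 5 kb bins. At the opposite anchor, 11 of 45 member loops had an end of another gene (24.4%, against 31.9% of gene-end loops). By library, the median span of member loops was 375 and 248 kb in PMSG and 400 and 425 kb in hCG. The groups did not overlap, at 311 ± 90.2 and 412 ± 17.7 kb (SD, n = 2), a difference of 101 kb (exact permutation test, two-sided, p = 0.333, the smallest possible). All gene-end loops went the other way, at 165 ± 7.07 and 138 ± 10.6 kb (p = 0.333 by the same exact test). The member difference rests largely on PMSG replicate 2: without it the difference was 37.5 kb, and among loops in 5 kb bins it was -1.25 kb. Bins of 25 kb made up 41.9% and 35.0% of member loops in PMSG and 42.9% and 60.7% in hCG, and their part in the spans was not tested.

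**Figure D5:**
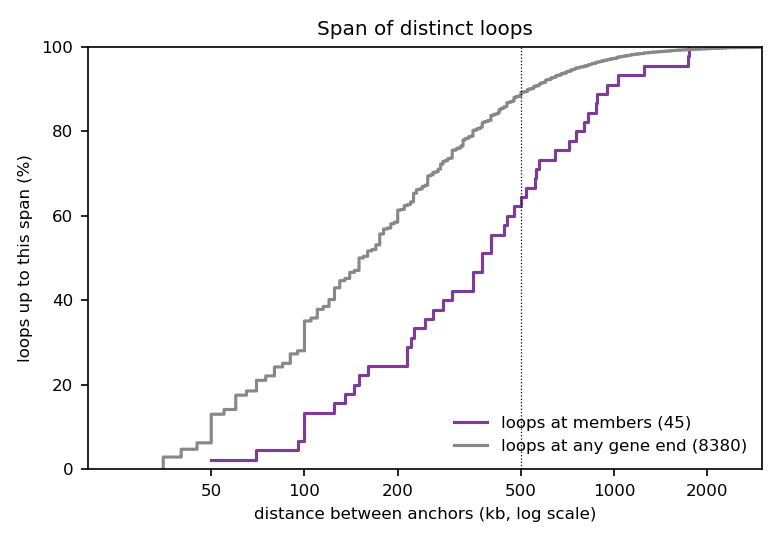
Curves give the cumulative share (percent) of distinct loops up to a given distance between anchors (kb, log axis), for 45 loops at members and 8380 loops at any gene end; the dotted line marks 500 kb. The member curve lies to the right, with medians of 375 and 150 kb.

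By the rule, the 23 listed genes without a loop had both ends more than 2.5 kb from every anchor. The distance from a gene end to the nearest anchor of any list ran from 3.09 to 948 kb with a median of 39.3 kb. Of the 23, 3 were within 10 kb. How far other unlooped protein-coding genes lay from an anchor was not computed. Pax5 alone had an anchor inside the gene, away from its ends. Just outside the 2.5 kb limit were Nkx2-1 at 3.09 kb, Nkx2-3 at 4.11 kb and Dlx6, and just inside were Lhx4 at 1.73 kb and Pax8 at 0.551 kb. Nkx2-1, the thyroid and lung regulator, was 3.09 kb from an anchor in both PMSG libraries, and 107 and 138 kb in hCG replicates 1 and 2. With a limit of 10 kb it joined Nkx6-2 and Pbx3 at PMSG-only loops, and Pax3 joined Nkx2-4 at hCG-only loops, while the shares over all genes became 5.97% and 8.84%. Looped genes were 5 of 11 in NKX, 5 of 9 in PAX, 2 of 6 in LHX, 3 of 5 among Six2 to Six6, 4 of 5 in MEIS and PBX, 2 of 6 in IRX and 4 of 6 in DLX. Unlooped genes were shorter, with a median length of 6.67 kb against 12.6 kb for members, and 23.6 kb for all looped genes.

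Relatives and partners outside the 48 were counted by the same rule, and their treatment-class counts stand beside the 8.31% (hCG-only) and 5.46% (PMSG-only) of all looped genes. Of all protein-coding genes 42.2% were looped, and of looped genes 41.7% had a constant loop. A count of 0 or 1 in these sets cannot be read against the treatment-class shares. Most of the sets are small, and the HOX genes, as given below, are not separate cases. Of 14 other genes of the same families, 7 were looped, among them Lhx9, Isl1 and Lmx1b. Constant loops were present at 4 of them, and 0 were at an hCG-only or PMSG-only loop. Of 12 partner genes (cofactors of the EYA and DACH families, LIM-domain binding genes and TLE corepressors), 4 were looped. Of these 4, 0 were at a constant loop and 0 at a loop of either treatment class. HOX genes, the other large homeodomain group, were looped at 31 of 39, with 19 at constant loops and 0 at hCG-only or PMSG-only loops. Many HOX genes share an anchor, so they do not count as separate cases. Of 18 Polycomb genes, 9 were looped, 2 of them at constant loops, and Ezh1 was at a PMSG-only loop.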

How the data were processed

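The submitters' processing notes name BWA, Juicer and build mm10, and per the file headers juicer_tools 1.22.01 wrote the lists. For the BWA version, caller settings and read filters, nothing is given in the sources used here. The authors deposited 1 merged loop list per library, in bins of 5, 10 and 25 kb, with technical replicates not given apart. Each deposited list holds the observed contact count of a pixel (not normalized), its expected contact signal from 4 neighbourhoods, and the FDR of each as a q-value, at most 0.0994. The deposited score of collapsed pixels was not used. Contacts can include PCR copies.

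Gene ends came from RefSeq protein-coding genes on GRCm38.p6. Connected sets of matching loops of different lists formed distinct loops, of which 3.52% were wider than 20 kb; the position given is that of the smallest bin. Loop strength was tested with edgeR 4.0.16 in R 4.3.3 over 435 pixels, with Benjamini-Hochberg adjustment; DESeq2 1.42.0 was an alternative. Other steps used Python 3.11.15, numpy 2.4.6, pandas 2.3.3, scipy 1.17.1 and matplotlib 3.10.9. Matching and strength steps were tested on simulated data. The members and lists were chosen with earlier results of these data known. Named with values were members at treatment-class loops, the 10 with most distinct loops, those at the 5 most enriched constant and 5 longest loops, and those joined to another member; values of Pax3, Pax9, Lhx2, Six2, Nkx6-1 and other members were added after seeing them. List shares carry no test. The partner of 1 member loop is not reported here.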

Additional observations from a re-analysis of the deposited data

How the results depend on the processing

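Nkx2-4 and Nkx6-2 kept their class in all 13 alternatives, but many of these could not have changed it. Leaving out single libraries or widening the gene-end limit cannot remove such a loop from its class. The nearest loops of the other group were 300 and 275 kb away, so wider matching could hardly change it either. Pbx3 left its class at FDR 0.01 and, having no annotated start in the promoter table, when only annotated starts counted. Members at constant loops fell to 5 when anchors had to overlap (20% against 18.9% of all looped genes) and to 4 with annotated starts only (25% against 35.7%). The latter setting was chosen after seeing the data. It could not count Pax3, Irx5, Dlx3 and Dlx5, which have no annotated start in the promoter table. Without single libraries, members at constant loops lay between 13 and 16, or 56.5% to 64.0%, against 45.6% to 50.4% of all looped genes. Members at hCG-only loops were 2 with gene ends within 10 kb (all looped genes 8.84%) and 1 to 6 without single libraries (11.4% to 25.9%). Members at PMSG-only loops were 1 with annotated starts only (all looped genes 4.58%). They were 3 with lists of equal length (5.58%) or gene ends within 10 kb (5.97%), and 2 to 7 without single libraries (10.2% to 25.1%). The difference in member loops per 1000 turned to 0.413 with gene ends inside the anchor and ran from -0.657 to 0.132 without single libraries. The difference in median span turned to -1.25 kb in 5 kb bins and ran from 37.5 to 165 kb without single libraries. Deviations of same-numbered libraries correlated at -0.0157 over 435 pixels. Deviations at single pixels also hold counting error, which can hide a shared batch. The value therefore cannot tell whether replicate numbers pair the libraries. With the replicate number as a block, 0 member pixels passed, and Meis2 stayed at a log2 ratio of 0.75 (edgeR, adjusted p = 0.988). Requiring 20 contacts in every library left no member pixel to test. A pixel with 14 contacts, as at Meis2 in PMSG replicate 2, carries a large counting error. The cause of these changes was not tested.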
